A study of Homo sapiens with 36 samples.

Results

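A set of 10 genes named at early-replicating fragile sites or at the breakpoints of leukaemia and lymphoma rearrangements were examined for 3 chromatin marks in K562 cells, a widely used line from a chronic myeloid leukaemia. The genes were BACH2, FOXP1, IKZF1, BCL2, PAX5, FOXO1, BCL6, RUNX1, ETV6 and SWAP70, a list of 10 set beside 30367 windows of 100 kb that tile chromosomes 1 to 22 and X. For each gene the measure was the percent of its body, from the annotated 5′ end to the 3′ end on hg19, that lay inside called islands of enrichment. Every gene was looked up in each of 22 island lists, and all 10 could be placed. The bodies were 25 kb (BCL6) to 628 kb (FOXP1) long and made up 2251 kb together, with 7 genes on the minus strand and 3 on the plus strand. Replication timing and breakpoints were not measured in these libraries, so the name of the group comes from knowledge of the genes and was not checked here.

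The study used chromatin immunoprecipitation and sequencing to place macroH2A1, macroH2A1.2 and γH2AX before and after replication stress. Stress was given with aphidicolin, an inhibitor of replicative DNA polymerases, and the matched libraries are labelled untreated. The titles fall into 4 naming styles, called title sets here, which may be separate experiments. The labels do not state whether replicates were grown separately, so the spread behind each p-value may be technical.

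In title set 1, untreated K562 and K562 with aphidicolin each had 2 libraries for macroH2A1 and 2 for γH2AX, numbered 1 and 2. The aphidicolin titles of set 1 carry the value 0.5 with no unit. In title set 2 each treatment had 2 libraries for macroH2A1.2 and 2 for γH2AX, numbered 1 and 3. Title set 3 held 1 γH2AX library per treatment from K562 and 1 per treatment from a line labelled 2A3, whose genotype the labels do not give. Title set 4 held 2 macroH2A1.2 libraries from untreated K562, of which 1 carried sh-RFP, a control hairpin, and 1 carried sh-mH1.2, directed at macroH2A1.2.

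MacroH2A1 is a variant of histone H2A with a large macro domain, found over broad stretches of mostly silent chromatin, and macroH2A1.2 is a splice isoform of it. γH2AX is histone variant H2AX phosphorylated by the kinases that respond to broken DNA and stalled replication forks. Early-replicating fragile sites were described in B lymphocytes under replication stress as places where replication and transcription are both active, in contrast to common fragile sites, which replicate late and lie in very long genes.

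Islands are stretches called as enriched in reads, and a list holds no value outside them. Reads in islands ran from 2.41e6 to 2.65e7 per γH2AX library, and the macroH2A1 libraries had 3.90e7 to 4.87e7 such reads. Those of macroH2A1.2 had 2.02e6 to 7.52e7. Covered length differed with treatment across the genome as well. γH2AX islands covered 2.09% ± 0.566 of the span of chromosomes 1 to 22 and X in untreated K562 and 5.09% ± 2.67 with aphidicolin (SD, n = 5 each). MacroH2A1 islands covered 11.1% and 14.4% (means of 2), and macroH2A1.2 islands 8.69% and 10.3%.

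Across the 22 lists 3 genes, FOXP1, FOXO1 and ETV6, held no island of any mark. γH2AX islands were found in 5 genes, BACH2, IKZF1, BCL6, RUNX1 and SWAP70. Islands of macroH2A1 or macroH2A1.2 covered a large part of SWAP70 alone (29.9% to 60.0% of its body over the 8 macroH2A lists of title sets 1 and 2), against at most 20% in the other genes. The group thus held genes with γH2AX and no macroH2A in title sets 1 to 3 (BACH2, IKZF1, RUNX1), genes with both marks (SWAP70, BCL6), genes with a single small macroH2A island (PAX5, BCL2), and genes with neither.

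The upstream sequences of 4 genes are shown because no γH2AX island reached any 5′ end while macroH2A islands reached that of SWAP70, and because these 4 differ in CG content. Each is the 250 bases before the outermost start of the gene in RefSeq on GRCh38.p14, on the gene's own strand, 5′ to 3′, with every CG in capitals. All 10 genes were matched in that table by symbol. The windows are chr11:9663827-9664076 for SWAP70 (plus strand), chr6:90296844-90297093 for BACH2 (minus strand), chr7:50304466-50304715 for IKZF1 (plus strand) and chr3:187745469-187745718 for BCL6 (minus strand).
SWAP70: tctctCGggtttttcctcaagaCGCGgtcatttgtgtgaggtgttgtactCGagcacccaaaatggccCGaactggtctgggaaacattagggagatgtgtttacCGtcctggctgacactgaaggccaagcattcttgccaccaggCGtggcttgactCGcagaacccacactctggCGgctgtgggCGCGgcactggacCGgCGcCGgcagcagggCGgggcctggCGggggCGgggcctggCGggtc
BACH2: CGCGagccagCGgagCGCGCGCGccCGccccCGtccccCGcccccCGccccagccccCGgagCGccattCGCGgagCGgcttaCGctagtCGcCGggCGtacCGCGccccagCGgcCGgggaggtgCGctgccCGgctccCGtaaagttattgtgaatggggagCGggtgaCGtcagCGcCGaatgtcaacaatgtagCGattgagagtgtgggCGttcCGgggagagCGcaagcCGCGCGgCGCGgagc
IKZF1: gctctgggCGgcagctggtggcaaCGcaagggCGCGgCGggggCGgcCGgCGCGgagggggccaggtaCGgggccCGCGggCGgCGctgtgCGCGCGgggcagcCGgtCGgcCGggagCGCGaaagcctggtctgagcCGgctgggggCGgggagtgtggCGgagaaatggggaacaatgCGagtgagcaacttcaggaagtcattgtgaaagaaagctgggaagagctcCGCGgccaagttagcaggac
BCL6: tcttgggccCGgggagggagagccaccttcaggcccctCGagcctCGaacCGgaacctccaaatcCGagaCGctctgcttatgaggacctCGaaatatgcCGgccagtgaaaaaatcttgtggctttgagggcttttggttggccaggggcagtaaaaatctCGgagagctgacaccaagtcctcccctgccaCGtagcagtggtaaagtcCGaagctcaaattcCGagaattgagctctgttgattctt

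The BACH2 window held 40 CG pairs, and 2.16% of the 35116 upstream windows in the table held as many or more. IKZF1 held 28 (15.9% of windows held as many), SWAP70 held 18 (36.8%) and BCL6 held 12 (48.5%). CG reads the same on both strands, so each pair was counted once. The other 6 genes held 24 to 32. The windows are on GRCh38.p14 and were not placed on the hg19 spans, so they may not lie at the 5′ ends used for coverage. At the 5′ ends, within 1 kb either way, γH2AX islands covered 0% in all 12 lists for all 10 genes. MacroH2A islands covered 0% there in the 8 lists for 9 genes, the exception being SWAP70 with a median of 20% and a range of 0% to 100%.

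γH2AX was set against aphidicolin first, since this mark is the one known to follow replication stress. Of the 10 genes, 5 held a γH2AX island in at least 1 of the 5 aphidicolin lists of K562, and 1 held an island in any of the 5 untreated lists. Of all 100-kb windows, 38.3% and 35.1% did. Mean coverage was higher with aphidicolin in 5 of 10 genes and lower in 0, against 33.3% and 23.2% of all windows. The median difference was 1.5 percentage points over the 10 genes and 0 over all windows, though gene bodies differ from windows in length.

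In a limma fit across all windows and genes with title set as a term, 5 genes entered the test, the others being covered in fewer than 2 libraries. None of the 5 gene bodies passed adjusted p 0.05, while 3.8% of tested windows were higher with aphidicolin and 1.34% lower. At an unadjusted p under 0.05 there were 3, BACH2, BCL6 and SWAP70, where 29.1% of tested windows were higher. On the reads inside islands, edgeR called 3 genes higher (BACH2, RUNX1 and SWAP70) where it called 28.1% of windows higher, and DESeq2 called 4 (these and IKZF1) where it called 44.6%. Both shares are high enough that these calls say little of the genes by themselves. A gene at 0 in every untreated list can enter the test only through its aphidicolin values, so these counts are descriptions.

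**Figure D1:**
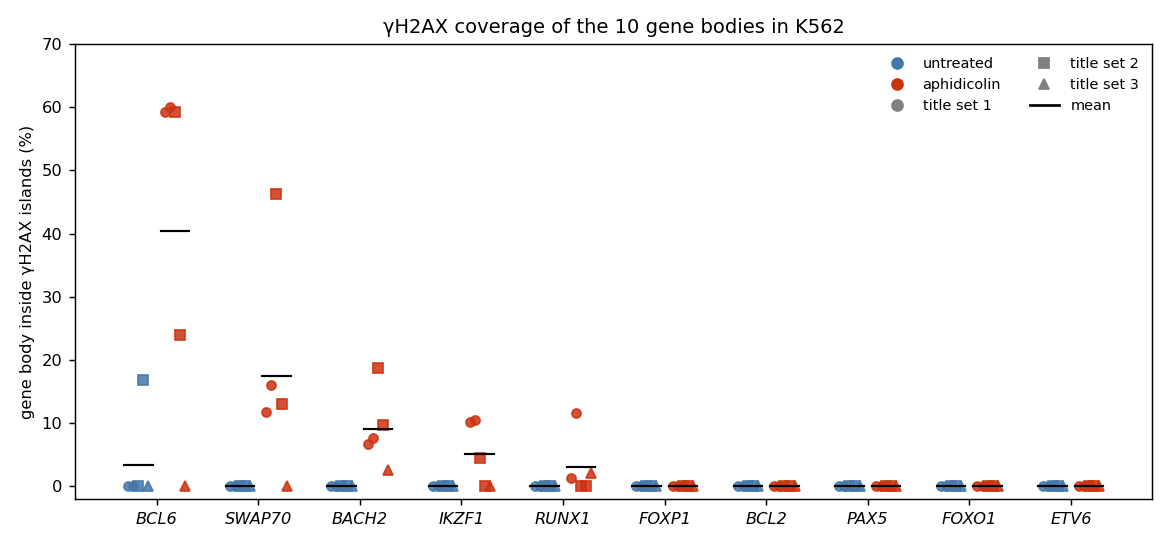
Percent of each gene body inside γH2AX islands (vertical axis) for the 10 genes in untreated (blue) and aphidicolin (red) K562 libraries. Each point is 1 library, its shape the title set, and the bar is the mean of 5. BCL6 reaches 60.0% and SWAP70 46.3% with aphidicolin, while 5 genes are at 0 throughout.

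BCL6, a transcriptional repressor of germinal-centre B cells whose rearrangement is frequent in lymphoma, was the most covered gene. Its γH2AX coverage with aphidicolin was 59.2% and 60.0% in title set 1, 59.2% and 24.0% in set 2, and 0% in set 3. In untreated K562 it was 0% in 4 libraries and 16.8% in replicate 3 of set 2. The groups overlapped, because the set 3 aphidicolin library was at 0%. The mean difference was 37.1 percentage points (SE 10.3, limma adjusted p = 0.0632). Of all 121404 tiles of 25 kb, 3.33% had a mean as high with aphidicolin.

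SWAP70, which encodes a signalling protein of B cells that acts on Rac and the actin skeleton, was covered in 4 of 5 aphidicolin libraries. The values were 11.7% and 16.0% in set 1, 46.3% and 13% in set 2, and 0% in set 3, against 0% in all 5 untreated libraries. Replicate 1 of set 2 was the high library. The mean difference was 17.4 percentage points (SE 6.97, limma adjusted p = 0.111), and 11% of tiles of its length had a mean as high with aphidicolin.

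BACH2, a repressor that guides B-cell and T-cell fate, was the gene in which every aphidicolin library lay above every untreated one. Its coverage was 6.68% and 7.65% in set 1, 18.7% and 9.70% in set 2, and 2.53% in set 3, against 0% in all 5 untreated libraries. Such a separation of the 2 treatments was seen in 8.34% of tested windows and in 1 of the 5 tested genes. An island in all 5 aphidicolin lists and in no untreated list was held by 1 of the 10 genes. Of all 30367 windows, 517 held one in that way, though gene bodies differ from windows in length. The mean difference was 9.05 percentage points (SE 2.56, limma adjusted p = 0.0645), and 20.5% of tiles of its length had a mean as high with aphidicolin. With title sets 1 and 2 only, BACH2 reached adjusted p = 0.0370 and BCL6 0.0198, in a fit that called 17.6% of windows higher.

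IKZF1, the lymphoid transcription factor IKAROS, was covered at 10.2% and 10.5% in set 1, 4.5% and 0% in set 2, and 0% in set 3. All 5 untreated libraries were at 0%, so the groups touched at 0. The mean difference was 5.05 percentage points (SE 2.20, limma adjusted p = 0.128), and 23.9% of tiles of its length had a mean as high. The span used for IKZF1 is 129 kb against 102 kb in RefSeq on GRCh38.p14, another genome build. Where along the gene the 2 lengths differ was not placed. Its percents and the positions within it, the 3′ end included, are thus less certain than those of the other genes. The spans of those are 0.970 to 1.04 times the RefSeq length.

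RUNX1, a master regulator of blood formation and a common partner in leukaemia translocations, was covered at 1.30% and 11.6% in set 1, 0% and 0% in set 2, and 2.06% in set 3. The untreated libraries were all at 0%. The mean difference was 2.99 percentage points (SE 2.38, limma adjusted p = 0.318), and 30.0% of tiles of its length had a mean as high.

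ETV6, a transcription factor gene that is fused to RUNX1 in childhood leukaemia, was at 0% in every library. PAX5 (the factor that commits cells to the B lineage), FOXO1 and FOXP1 (forkhead transcription factors of B cells) and BCL2 (an inhibitor of apoptosis) were also at 0% in all 12 γH2AX lists. The 500 kb on either side of FOXO1 and BCL2 held no γH2AX island in K562 either. PAX5 was different in this respect, because the 500 kb before its 5′ end held 7.84%, 13%, 7.04%, 2.36% and 7.80% with aphidicolin (sets 1, 1, 2, 2 and 3) against 0%, 0%, 0.680%, 0% and 3.24% untreated. These groups overlapped, because the 2.36% with aphidicolin in set 2 lay below the 3.24% untreated in set 3. Flanks were not fitted as whole rows. Of the 4 tested 100-kb windows near PAX5, 2 were higher with aphidicolin, against 3.8% of all tested windows.

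Total depth is unknown and covered length moved with treatment genome-wide, and their part in these values was not tested. As a description, 2 libraries with similar reads in islands are given side by side. Replicate 3 of title set 2 had 3.54e6 reads in islands and 2.81% of the span covered when untreated, and 2.96e6 and 2.40% with aphidicolin. BACH2 went from 0% to 9.70%, SWAP70 from 0% to 13% and BCL6 from 16.8% to 24.0% between those libraries, while IKZF1 and RUNX1 were at 0% in both. This is 1 library against 1, chosen after its values were seen. When all lists were cut to equal covered length, the mean differences were 4.52 points for BACH2, 25.8 for BCL6 and 4.22 for SWAP70, with limma adjusted p of 0.211, 0.179 and 0.193.

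The γH2AX islands were not spread evenly along the genes. Each body was cut into 3 parts of equal length, called the 5′, middle and 3′ parts. In BACH2 the 3′ part held 24.0% ± 12.0 (SD, n = 5) with aphidicolin, against 1.55% ± 3.47 in the 5′ part and 1.58% ± 3.54 in the middle part. The values of the 3′ part were 20.1% and 23% in set 1, 40.3% and 29.1% in set 2, and 7.60% in set 3. It was the highest part of BACH2 in all 5 libraries. In IKZF1 the islands lay in the 3′ part alone, with 30.7%, 31.6% and 13.5% in the 3 libraries that had any.

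**Figure D2:**
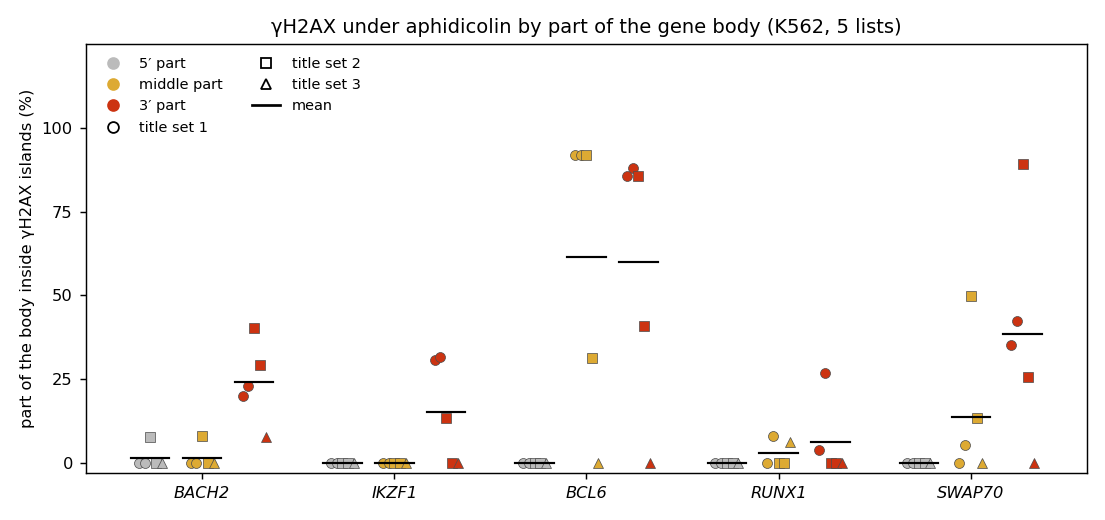
Percent of the 5′, middle and 3′ part (each 1 of 3 equal lengths) of 5 gene bodies inside γH2AX islands (vertical axis) in the 5 aphidicolin libraries of K562. Points are libraries, shapes are title sets and bars are means. The 5′ part is at 0 in each library except in BACH2, where 1 library has 7.76%.

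In SWAP70 the 5′ part held 0% in every aphidicolin library, the middle part 13.7% ± 20.8 and the 3′ part 38.5% ± 32.6. In BCL6 the 5′ part held 0%, and the middle and 3′ parts were alike at 61.4% ± 43.3 and 60.0% ± 38.9. In RUNX1 the means were 0%, 2.84% ± 3.94 and 6.14% ± 11.7. The 5′ part was thus free of γH2AX in 4 of these 5 genes. Where other genes hold their γH2AX was not analysed here, since no hg19 gene annotation was at hand, so this position is not shown to be particular to these genes.

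At the resolution of islands the same places recurred across libraries. In BACH2, 14.4 kb lay inside islands of 4 aphidicolin lists and 26.4 kb inside islands of at least 3, out of 83.0 kb covered in any. All of the stretches shared by at least 3 lists fell between 327 kb and 370.4 kb from the 5′ end. The longest was chr6:90661001-90667000 on hg19, 6.0 kb long. In BCL6, 13.8 kb lay inside islands of at least 3 lists, in 3 stretches. The longest was chr3:187444001-187455000, 11 kb long and 9.0 to 20 kb from the 5′ end. Its 5′ edge was the same 200-bp step in 3 lists, both of set 1 and replicate 1 of set 2. SWAP70 shared 10.8 kb in 4 stretches, all from 72.0 to 89.0 kb, the longest being chr11:9766201-9770200. IKZF1 shared 1.0 kb at its very end, and RUNX1 shared 0 kb in 3 or more lists and 2.8 kb in 2.

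Within 1 kb of the 3′ end, BACH2 was covered at 60.0%, 60.0%, 100% and 90.0% in sets 1 and 2 and at 0% in set 3. SWAP70 was covered there at 50.0%, 100%, 100% and 100% in the same libraries, and IKZF1 at 100%, 100%, 100% and 0%. These values take in islands on either side of the gene's end. The 500 kb after the 3′ end of RUNX1 held 42.5% and 54.2% in set 1, 31.0% and 14.2% in set 2, and 23.3% in set 3, against 0% in 4 untreated libraries and 3.96% in that of set 3. These groups did not overlap, but the share of other 500-kb stretches that separate in this way was not computed. The RUNX1 body itself was far less covered. The same stretch after BCL6 held 28.6%, 30.2%, 44.7%, 28.7% and 0% with aphidicolin, against 0% to 7.24% untreated.

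The 100-kb windows that overlap a gene were read from the same fit, and they also reach outside the gene. Of 32 such windows 12 were tested, and γH2AX rose with aphidicolin in 4 and fell in 0, against 3.8% and 1.34% of all tested windows. The window at the 3′ end of BACH2 (chr6:90600001-90700000) rose from 0% to 38.3% ± 21.4 (SD, n = 5, limma adjusted p = 0.0456). The window at the 3′ end of RUNX1 (chr21:36100001-36200000) rose from 1.36% ± 3.04 to 35.7% ± 16.6 (limma adjusted p = 0.0439). The window that holds all of BCL6 (chr3:187400001-187500000) rose from 2.72% ± 3.77 to 34.4% ± 19.8 (limma adjusted p = 0.0470). The last of the 4, at the 5′ end of SWAP70 (chr11:9600001-9700000), rose from 0% to 14.2% ± 7.90 (limma adjusted p = 0.0494) and was named after its values were seen. Since SWAP70 holds no γH2AX in its 5′ part, the γH2AX of that window lies before the gene. The BACH2 and SWAP70 windows, at 0% in every untreated library, could enter the test only through aphidicolin. All 4 stood close to the threshold, and 0 passed with no filter (of 14), with the upper 50% of islands or with the replicate number as a block. Those 3 fits called 0.792%, 0.695% and 0.134% of all tested windows higher. At equal covered length, where 0.775% of windows were higher, 0 of 4 tested windows passed. Leaving out single libraries gave 0 to 6. The count was 0 after leaving out either set 1 library of either treatment, or either untreated library of set 2. Those fits called 0.261% to 0.482% of all tested windows higher. It was 1 without aphidicolin replicate 1 of set 2, where 1.6% of windows were higher. The count was 6 without aphidicolin replicate 3 of set 2 or without either K562 library of set 3. Those fits called 16.7% to 17.1% of all tested windows higher.

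In the flanking windows within 500 kb, γH2AX was higher in 5 of 48 tested windows and lower in 0, against 3.8% and 1.34% of all tested windows. These lay by PAX5 (2), RUNX1 (2) and BCL6 (1).

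**Figure D3:**
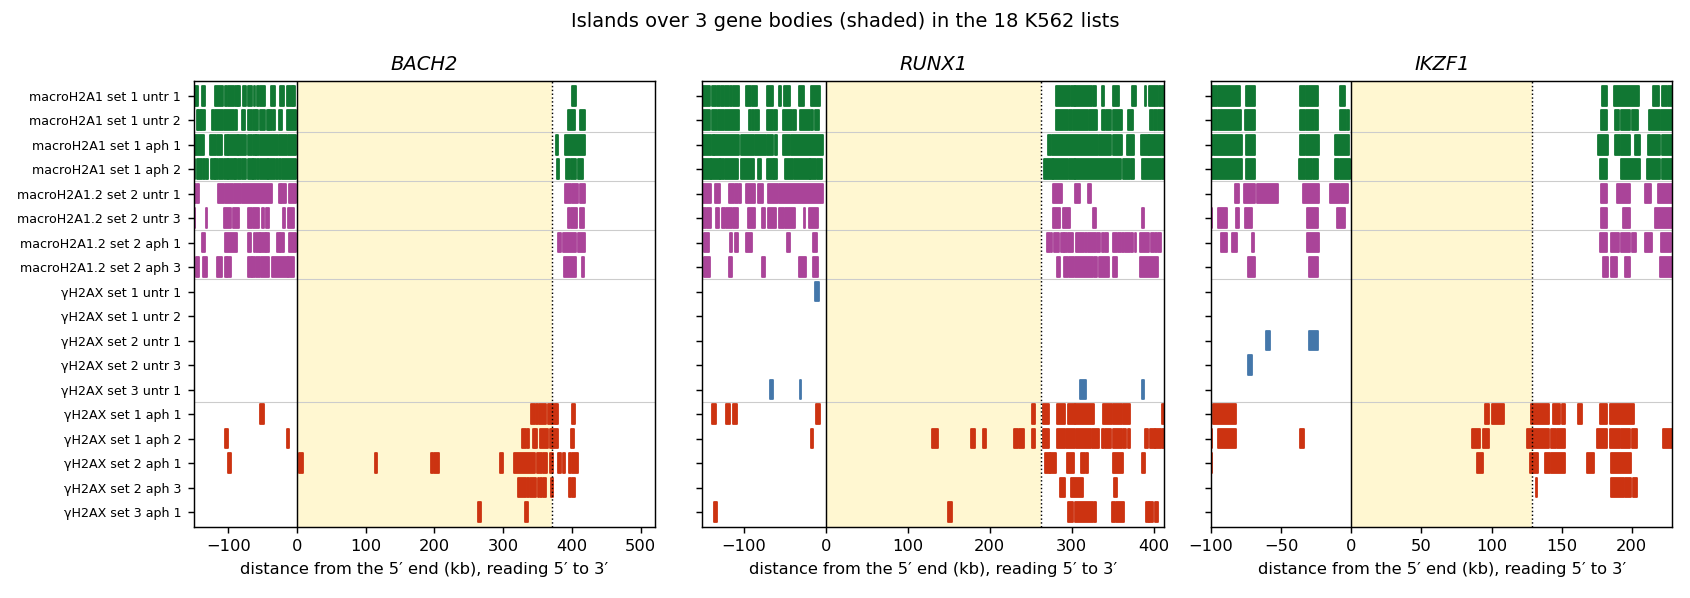
Islands over BACH2, RUNX1 and IKZF1 and their surroundings in the 18 K562 lists, 1 row per list. The horizontal axis is the distance from the 5′ end in kb, the shaded area is the gene body, and colours mark macroH2A1 (green), macroH2A1.2 (purple), untreated γH2AX (blue) and aphidicolin γH2AX (red). MacroH2A islands stop near both ends of BACH2 and RUNX1 and leave the bodies empty.

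MacroH2A was examined next, over the same 8 lists (4 of macroH2A1, 4 of macroH2A1.2). As many as 6 genes, BACH2, FOXP1, IKZF1, FOXO1, RUNX1 and ETV6, had no macroH2A island in any of the 8. Of all tiles as long as each gene, 21.3% (FOXP1) to 45.9% (FOXO1) were empty in the 8 lists as well, so an empty body is common by itself. In BACH2, RUNX1 and IKZF1 macroH2A islands lay close to an end of the empty body. For FOXO1 the nearest island before the 5′ end was at a median of 11.4 kb, with a range of 2.4 to 172.6 kb. How often empty tiles have an island so near was not analysed. No test was made of these positions.

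BACH2 lay in a gap between macroH2A islands of 377 to 402 kb, for a gene of 371 kb. The islands before the gene began 1.0 to 4.6 kb from its 5′ end, and those after it 5.2 to 29.0 kb from its 3′ end, over the 8 lists. The 500 kb before the 5′ end were covered at 14.5% to 32.6%. Tiles of 371 kb with no island made up 28.0%.

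RUNX1 lay in a gap of 271 to 291 kb for a gene of 262 kb. Its gap reached 3.2 to 10.8 kb before the 5′ end and 4.6 to 19.6 kb past the 3′ end. The surroundings were the densest of the 10 genes, with 40.6% to 84.0% of the 500 kb before the 5′ end and 12.9% to 54.9% of the 500 kb after the 3′ end covered. Its body was at 0% in the 8 lists. The control hairpin list showed the same, with 96.8% before, 0% in the body and 63.9% after.

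IKZF1 lay in a gap of 178 to 203 kb, which reached 1.0 to 24.0 kb before the 5′ end and 47.0 to 50.4 kb past the 3′ end. Its flanks were covered at 12.8% to 32.9% and 26.1% to 38.6%. FOXP1 lay in a far wider empty stretch of 1043 to 2479 kb. FOXO1 and ETV6 lay in thinly covered surroundings, with at most 2.72% and 5.80% in either flank. Chromosome 13, which carries FOXO1, was covered at 1.43% to 3.75% as a whole and chromosome 18, which carries BCL2, at 2.35% to 7.37%.

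**Figure D4:**
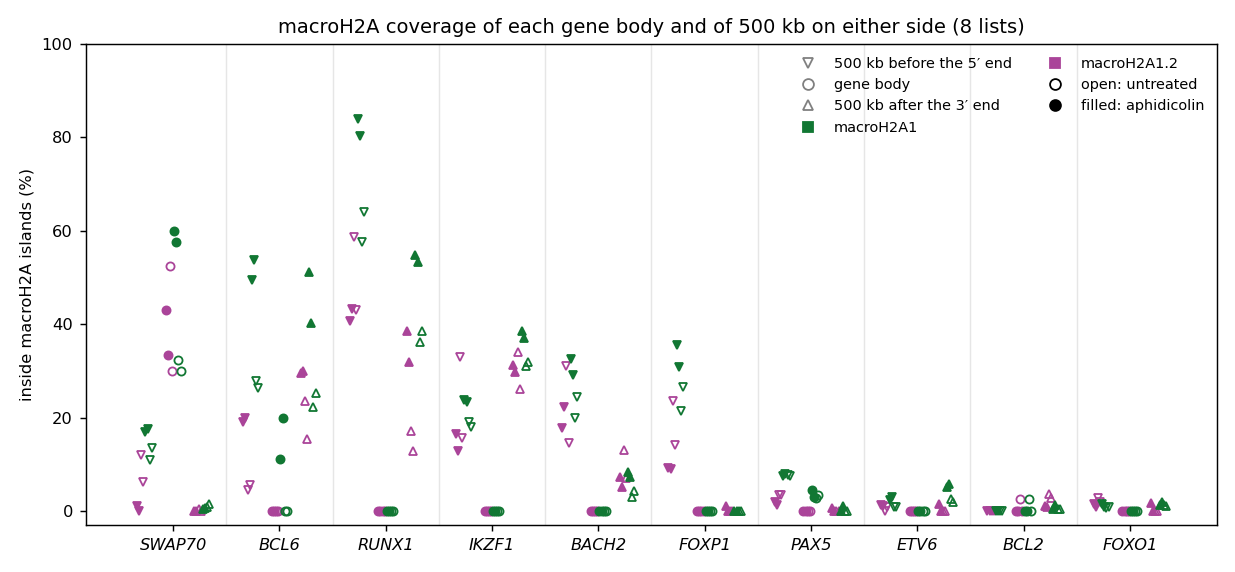
Percent inside macroH2A islands (vertical axis) for the 500 kb before the 5′ end, the gene body and the 500 kb after the 3′ end of each gene, in 8 lists. Green is macroH2A1, purple macroH2A1.2, open symbols untreated and filled symbols aphidicolin. RUNX1 goes from up to 84.0% before the gene to 0% within it, and SWAP70 has the reverse order.

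The body was below the mean of the flanks in 8 of 8 lists for BACH2, FOXP1, IKZF1, FOXO1, BCL6 and RUNX1. It was so in 7 for PAX5 and ETV6, in 6 for BCL2 and in 0 for SWAP70. For the bodies at 0% in all 8 lists any island in a flank fixes this order, so it adds nothing to their being empty. How often other stretches lie below their flanks was not analysed. SWAP70 was the reverse of the others, with a median of 38.2% in the body, 11.4% in the 500 kb before it and 0.320% in the 500 kb after it. Its islands lay towards the 5′ side, with medians of 44.7% in the 5′ part, 62.1% in the middle part and 9.10% in the 3′ part. Of all 34092 tiles of 89 kb, 13.6% were covered as much by macroH2A1 in untreated K562, and 7.44% by macroH2A1.2.

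PAX5 held a single island in all 4 macroH2A1 lists, 125 to 134 kb from the 5′ end. Its coverage was 2.77% and 3.38% untreated and 4.41% and 2.87% with aphidicolin, and the groups overlapped (limma adjusted p = 0.830). No macroH2A1.2 list of untreated or aphidicolin K562 held that island, and the control hairpin list held it at 1.85% of the body. BCL2 held a single island 124 to 130 kb from its 5′ end in 2 lists, untreated replicate 1 of macroH2A1 (2.65%) and untreated replicate 1 of macroH2A1.2 (2.55%).

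For macroH2A1 under aphidicolin, 3 genes entered the limma fit and 1, SWAP70, passed, while 6.69% of tested windows were higher and 0.11% lower. SWAP70 was covered at 32.4% and 29.9% in the untreated libraries and at 60.0% and 57.5% with aphidicolin. The groups did not overlap, and the body rose by 27.6 percentage points (SE 1.88, limma adjusted p = 0.0388). At equal covered length the difference was 3.15 points (limma adjusted p = 0.869) in a fit that called 0.0348% of windows higher. Without any 1 of the 4 libraries the difference was 26.4 to 28.9 points. The call ended there too, but such a fit leaves a lone library in a group and cannot decide about SWAP70. The limma fit with the replicate number as a block gave adjusted p = 0.100 and called 0% of all tested windows, so it cannot decide either.

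BCL6 had no macroH2A1 island in either untreated library, and 11.2% and 20% with aphidicolin. The difference of 15.6 percentage points did not pass (SE 3.64, limma adjusted p = 0.0921). Every aphidicolin library lay above every untreated one in BCL6 and SWAP70, as in 57.6% of tested windows for macroH2A1, so the separation is near the background. All macroH2A1 in BCL6 lay in the middle part and at the 3′ edge.

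For macroH2A1.2, SWAP70 was the gene tested, and 0 of 1 passed, while 15.2% of tested windows were higher and 6.73% lower. Its coverage was 52.4% and 29.9% untreated and 42.9% and 33.5% with aphidicolin. The groups overlapped, whereas 41.4% of tested windows had every aphidicolin library above every untreated one. The difference was -2.92 percentage points (SE 9.33, limma adjusted p = 0.849, unadjusted p = 0.772). Neither edgeR nor DESeq2 called SWAP70 for macroH2A1.2. The other 9 genes were at 0% in both aphidicolin libraries.

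Among the windows over genes, 1 of 11 tested rose for macroH2A1 (6.69% of all tested windows) and 1 of 10 for macroH2A1.2 (15.2%), shares near or below the background. Both were the window at the 3′ end of RUNX1 named above. MacroH2A1 there rose from 38.6% ± 0.283 to 51.5% ± 1.84 (SD, n = 2, limma adjusted p = 0.0477). MacroH2A1.2 there rose from 16.5% ± 1.27 to 35.9% ± 6.36 (limma adjusted p = 0.0483). Since the RUNX1 body held no macroH2A island, these islands lie past its 3′ end. The same window rose for γH2AX. The window at the 5′ end of RUNX1 (chr21:36400001-36500000), named after its values were seen, did not pass for either mark. MacroH2A1.2 in it went from 56.1% ± 16.5 to 13.8% ± 7.35 (limma adjusted p = 0.0616). MacroH2A1 in it went from 40.8% ± 7.64 to 58.1% ± 6.08 (limma adjusted p = 0.139). Both calls in the window at the 3′ end ended with the replicate number as a block. There, 0% of all tested windows were higher for macroH2A1 and 3.66% for macroH2A1.2. That of macroH2A1 also ended at equal covered length, where 0.0348% of windows were higher. Both ended when any single library was left out, but such fits leave a lone library in a group and cannot decide about this window.

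**Figure D5:**
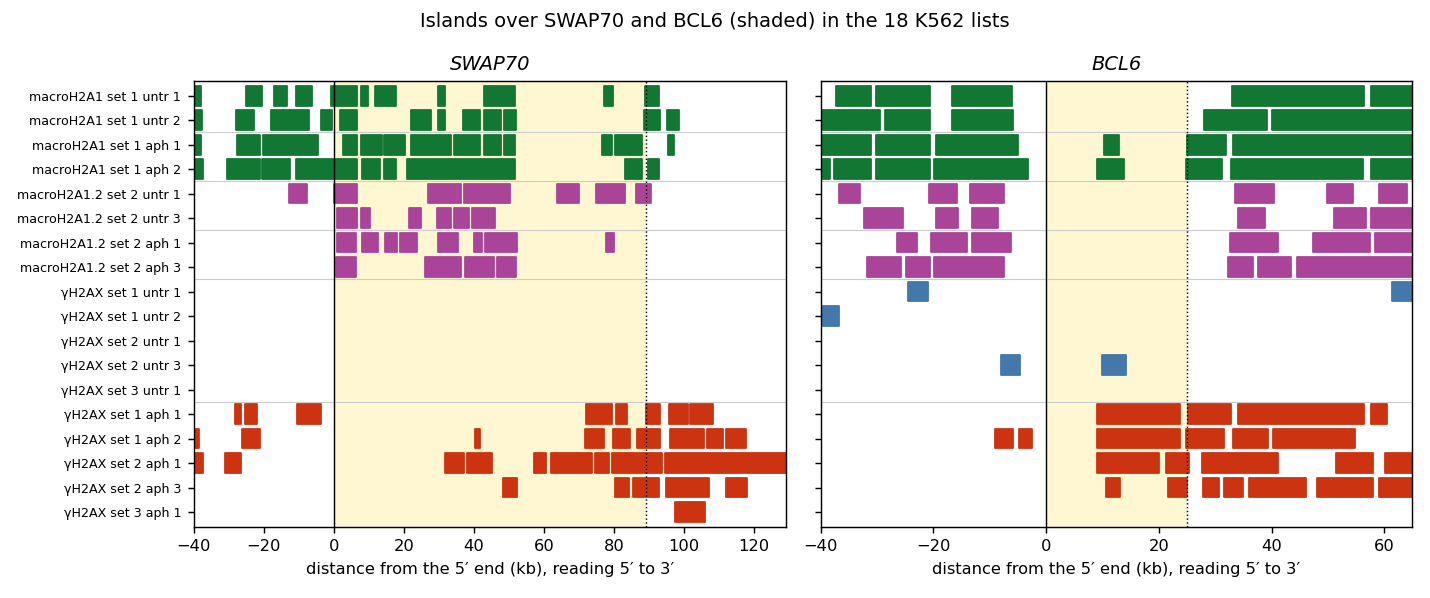
Islands over SWAP70 and BCL6 with 40 kb on either side in the 18 K562 lists, 1 row per list, in the same colours and with the distance from the 5′ end in kb along the horizontal axis. In SWAP70 most macroH2A islands lie on the 5′ side and most γH2AX islands on the 3′ side, and in BCL6 γH2AX covers 9.0 to 20 kb in 3 lists.

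The overlap of the marks was read from the γH2AX lists of sets 1 and 2 with aphidicolin, each against the macroH2A list of the same title stem. Over whole lists, 62.4% and 62.4% of γH2AX length in set 1 lay inside macroH2A1 islands, and 40.4% and 50.2% in set 2 inside macroH2A1.2 islands. Within the 10 genes the shares were 12.9% and 9.25% in set 1 and 7.18% and 6.72% in set 2. All 4 shares within the genes lay below all 4 over whole lists (means 9.01% ± 2.82 and 53.9% ± 10.7, SD, n = 4). With regions common to both macroH2A replicate lists the means were 6.25% and 47.8%. The 10 genes were mostly free of macroH2A to begin with, and this was not matched in the whole lists.

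By gene, the γH2AX of BACH2 (24.8 to 69.2 kb per list), IKZF1 and RUNX1 lay wholly outside macroH2A islands in the lists that had any. The γH2AX of SWAP70 lay inside them at 55.8% and 31.0% in set 1 and at 22.8% and 31.0% in set 2. For BCL6 the shares were 18.9% and 33.3% in set 1 and 0% in both lists of set 2. For BACH2, IKZF1 and RUNX1 a share of 0% follows from bodies with no macroH2A island, and RUNX1 had no γH2AX in set 2 to compare.

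In the hairpin libraries, 1 of each and so without a test, SWAP70 was covered by macroH2A1.2 at 87.2% with sh-RFP and 0% with sh-mH1.2. PAX5 went from 1.85% to 0%. RUNX1 held 0% with sh-RFP and a single island of 2.2 kb (0.840% of the body, 59 reads) with sh-mH1.2. The other 7 genes were at 0% in both. The 500 kb before RUNX1 went from 96.8% to 3.60%. The whole sh-mH1.2 list covered 0.781% of the span from 2.02e6 reads in islands, against 13.8% from 7.52e7 with sh-RFP, so loss of the target and lower depth cannot be told apart here.

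In line 2A3, with 1 library per treatment and no test, γH2AX was found in 2 genes. RUNX1 was covered at 3.44% untreated and 6.34% with aphidicolin, against 0% and 2.06% in K562 of the same title set. Both 2A3 lists held an island 225 to 243 kb from the 5′ end of RUNX1, where replicate 2 of set 1 in K562 with aphidicolin also had islands. BCL6 was covered at 0% and 12.8% in 2A3. BACH2, IKZF1 and SWAP70 were at 0% in both 2A3 lists. The 500 kb past the 3′ end of RUNX1 held 13.8% untreated and 35.5% with aphidicolin in 2A3, against 3.96% and 23.3% in K562 of set 3.

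Taking the 10 genes as 1 stretch of 2251 kb, γH2AX covered 0.0373% ± 0.0834 in untreated K562 and 3.27% ± 1.98 with aphidicolin (SD, n = 5). Those values lay below the 2.09% and 5.09% of the whole span. With SWAP70 left out the means were 0.0389% and 2.68%. MacroH2A1 covered 1.61% and 2.81% of the stretch and macroH2A1.2 1.74% and 1.51% (means of 2), against 11.1%, 14.4%, 8.69% and 10.3% of the span. Without SWAP70, macroH2A1 covered 0.398% and 0.509%, and macroH2A1.2 0.116% and 0%.

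Over the 22 lists the pair of genes with the most alike coverage was IKZF1 and BCL6, with Pearson r = 0.880. The points share libraries and depth, most are at 0 in both genes, and 3 lists covered both, so the value describes those 3 lists.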

How the data were processed

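The values are counts of reads per island in the lists the authors deposited, 1 list for each of 22 libraries, and 14 input libraries were not analysed here. Bowtie2 2.1.0, SICER 1.1 and deepTools with hg19 are named in the submitters' processing notes. The names of the deposited lists carry the caller's settings, with 200 bp windows, 600 bp gaps and an FDR of 0.01. The total depth per library is unknown, so the percent of length covered was the main measure and island reads an alternative. More reads allow weaker places to be called.

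Island starts count from 0 and island ends are the last base inside. Gene spans on hg19 were given to the nearest kb, and strand came from RefSeq. The 10 genes, all named here, were fitted in 1 table with all 100-kb windows in limma 3.58.1 (R 4.3.3). Rows covered in fewer than 2 libraries were left out, and the Benjamini-Hochberg adjustment ran over the whole table, with a threshold of 0.05. Alternatives were edgeR 4.0.16, DESeq2 1.42.0, equal covered length, the upper 50% of islands, islands of at least 2 kb, other filters and scales, and leaving out each library. Windows named were up to 3 per mark, those past the threshold with the largest difference. The scripts were tested on simulated data. The genes, lists and rules were chosen with earlier results of these data known. No hg19 annotation was used, so exons and introns are not stated. No 2 lists shared more than 13 islands identical in edges and reads (0.0366% of the shorter list), so each counts as a library.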

Additional observations from a re-analysis of the deposited data

Results flagged for a closer look

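In the γH2AX lists of K562, 29 combinations of gene, stretch and treatment with any island were searched for a library far from the other 4, and 11 had one. Chance gives about 1 in 20 for values that spread evenly, but here most groups hold several libraries at 0, so a lone library with an island is picked out by itself.

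In the gene bodies, the untreated replicate 3 of title set 2 had 16.8% of BCL6 covered, with the other 4 at 0%. The aphidicolin replicate 2 of set 1 had 11.6% of RUNX1 covered, with the others at 0% to 2.06%.

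In the 500 kb before the 5′ end, the untreated library of set 3 had 3.24% by PAX5 and 0.640% by SWAP70. Replicate 2 of set 1 had 10.3% by BCL6 when untreated and 1.12% with aphidicolin. Replicate 1 of set 2 with aphidicolin had 1.44% by ETV6.

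In the 500 kb after the 3′ end, replicate 1 of set 2 with aphidicolin had 27.4% by SWAP70, with the others at 1.72% to 8.52%, and 2.04% by ETV6. The untreated library of set 3 had 3.96% by RUNX1, and untreated replicate 2 of set 1 had 1.00% by SWAP70.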

How the results depend on the processing

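Of the values for single genes under the alternatives, 130 kept their direction and side of the threshold, 19 passed it newly, 8 no longer passed and 5 changed direction. The 5 were PAX5 for macroH2A1 (-0.13 with edgeR and -0.18 with DESeq2 on the log2 scale, and -0.205 to 1.33 points without 1 library, the lowest without aphidicolin replicate 1) and SWAP70 for macroH2A1.2 (-14.2 to 8.31 points without 1 library, with 1.80 without aphidicolin replicate 3 and 8.31 without untreated replicate 1), none of which passed the threshold. The cause was not tested.

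For macroH2A1, 1 gene passed. That number was 0 at equal covered length (0.0348% of all windows higher), with the upper 50% of islands (3.07%) and with edgeR (0.11%). It was 2 with the arcsine scale (9.47% of all windows higher) and with DESeq2 (19.1%). The 1 window over genes was 0 at equal covered length, the upper 50%, arcsine scale and edgeR, and 2 with DESeq2. Neither call held without 1 library, but such fits leave a lone library in a group and cannot decide. For macroH2A1.2, the 1 window, higher, was 3 at equal covered length, arcsine scale and edgeR (1 higher, 2 lower). Those fits called 7.8%, 20.5% and 16.1% of all windows higher and 10.7%, 10.1% and 13.6% lower. The count was 6 with DESeq2 (2 higher, 4 lower), where 25% of all windows were higher and 24.6% lower. It was 0 with no filter, where 12.3% were higher. This call did not hold without 1 library either, and such fits cannot decide.

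For γH2AX, 0 genes passed. That number was 3 with the arcsine scale (30.4% of all windows higher) and 3 with edgeR (28.1%). It was 4 with DESeq2 (44.6%), 2 with title sets 1 and 2 only (17.6%), and 0 to 2 without 1 library (0.261% to 17.1%). The 4 windows were 0 at equal covered length, the upper 50% and no filter, and 8 with DESeq2. They were 1 with no title set term (2.81% of all windows higher) and 0 to 6 without 1 library (0.261% to 17.1%).

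With the replicate number as a block, 0 genes and 0 windows passed for each of the 3 marks. Those fits called 0% (macroH2A1), 3.66% (macroH2A1.2) and 0.134% (γH2AX) of all tested windows higher. Deviations of same-numbered libraries correlated at 0.00783 (macroH2A1), -0.0538 (macroH2A1.2), -0.0411 and 0.0453 (γH2AX, sets 1 and 2). With 2 libraries per group these values cannot decide whether same-numbered libraries belong together, and the labels do not say. Where a lone library was left in a group, it was assumed to vary like the others. Limits of depth: islands are called, so 0% says that nothing passed the caller at that depth, and the γH2AX libraries of set 3 had 2.41e6 and 3.20e6 reads in islands in K562.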
